A study of Mus musculus with 15 samples.

Results

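Complexes III, IV and V of the respiratory chain each hold subunits that are encoded in mitochondrial DNA, and this account follows their transcripts across 5 groups of N2a cells. The genes were taken as the rows of the deposited table with the names CYTB, COX1, COX2, COX3, ATP6 and ATP8, written there in capitals without a mitochondrial prefix. All 6 were found among the 22507 genes of the table, and all 6 passed the filter on low counts. N2a is a mouse neuroblastoma cell line. Cells were sampled on day 3 after siRNA at 50 nM and a plasmid had been transfected together. The control group (siControl/Control) received control siRNA and a control plasmid. The knockdown group (siOPA1/Control) received siRNA against Opa1 and the control plasmid. The wild-type OPA1 group (siOPA1/OPA1) received that siRNA with a plasmid for OPA1, and the V560F and V465F groups (siOPA1/OPA1-V560F and siOPA1/OPA1-V465F) received it with a plasmid for OPA1 carrying the named substitution. Each group had 3 libraries, 15 in all. OPA1 is a dynamin-like protein of mitochondria that fuses their inner membranes and shapes the cristae, and the series concerns OPA1 mutations associated with dominant optic atrophy. Nothing in the labels says that replicates were separate cultures, so the p-values reflect the spread among the libraries sequenced and that spread may be technical. All cells were transfected, and the labels give neither the share that took up a plasmid nor the species of the OPA1 insert.

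Mitochondrial DNA is a small circle that is transcribed as long RNAs from each strand. These are cut, mostly at the tRNAs that lie between the coding genes, into separate messenger RNAs, which are then kept or degraded at different rates. CYTB encodes cytochrome b, the electron-carrying core of complex III. COX1, COX2 and COX3 encode the catalytic core of complex IV, cytochrome c oxidase, in which COX1 carries the site where oxygen is reduced and COX2 receives electrons from cytochrome c. ATP6 and ATP8 encode membrane subunits of complex V, the ATP synthase, and ATP6 forms part of its proton path. The remaining subunits of these complexes are encoded in the nucleus.

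Sequences are shown first because they set how firmly each transcript could be counted. They were read from the GENCODE M21 transcripts (build GRCm38), while the deposited counts were made on build GRCm39. All 6 genes lie on the plus strand, with COX1 at chrM:5328-6872, COX2 at chrM:7013-7696, ATP8 at chrM:7766-7969, ATP6 at chrM:7927-8607, COX3 at chrM:8607-9390 and CYTB at chrM:14145-15288. They have no introns. ATP8 and ATP6 share 43 bases, and ATP6 and COX3 share 1 base. In the whole ATP8 transcript, 204 bases long, the capitals mark the stretch that also opens ATP6:
ATP8: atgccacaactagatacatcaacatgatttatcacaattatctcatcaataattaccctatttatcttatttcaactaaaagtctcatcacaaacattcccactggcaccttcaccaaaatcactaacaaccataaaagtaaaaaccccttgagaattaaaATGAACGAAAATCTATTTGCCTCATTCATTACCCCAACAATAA

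Mouse nuclear chromosomes carry old copies of mitochondrial DNA, and each of the 6 transcripts was aligned to the other transcripts of GENCODE M21. COX2, COX3 and ATP6 had copies without a mismatch side by side on chromosome 1. The copy of COX2 was Gm28661 (chr1:24614885-24615565, minus strand, 681 of 681 bases identical), that of COX3 was Gm28437 (783 of 783) and that of ATP6 was Gm10925 (678 of 678). COX1 was identical to Gm13340 (chr2:22588103-22589647, minus strand) at 1508 of 1545 bases, and its last part, bases 1063 to 1545, was matched by Gm29216 with 1 substitution, A1066T. CYTB was closest to Gm11410 (chr4:80003989-80005131, plus strand), with 92.9% of aligned bases identical. The best match of ATP8 was 81.4% identical (Gm28925). The 3 pairs below show the start of a transcript above its nuclear copy, on the sense strand, for a distant, a close and an identical copy. Capitals mark the bases that differ, which are G14A, C24T and C61T for CYTB and C54A and A60G for COX1 (the mitochondrial base, its position from 1 at the 5′ end of the transcript, the base of the copy). The CYTB stretch is chrM:14146-14205 beside chr4:80003990-80004049, the COX1 stretch is chrM:5328-5387 beside chr2:22589588-22589647, and the COX2 stretch is chrM:7013-7072 beside chr1:24615506-24615565.
CYTB bases 2 to 61: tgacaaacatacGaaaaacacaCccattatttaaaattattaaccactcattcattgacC
Gm11410: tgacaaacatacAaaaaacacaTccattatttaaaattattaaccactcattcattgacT
COX1 bases 1 to 60: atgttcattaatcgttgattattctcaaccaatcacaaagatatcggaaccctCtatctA
Gm13340: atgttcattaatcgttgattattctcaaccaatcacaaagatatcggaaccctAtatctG
COX2 bases 1 to 60: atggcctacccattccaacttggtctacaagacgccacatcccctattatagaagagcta
Gm28661: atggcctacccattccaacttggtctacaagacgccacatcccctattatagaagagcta

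Of all windows of 100 bases, 99.5% in COX2, 99.9% in COX3 and 99.5% in ATP6 had an exact copy in a nuclear transcript. The share was 30.8% in COX1 and 0% in CYTB and ATP8. The 6 transcripts also differed widely in level. On the deposited FPKM scale, which divides counts by gene length and by the library total, COX1 had the highest median of all 22507 genes, at 28545, and CYTB ranked 3, at 7577. COX2 had a median of 269 (rank 210), ATP6 of 205 (rank 269), COX3 of 118 (rank 469) and ATP8 of 40.8 (rank 1442). COX1 stood far above the other complex IV subunits of the same strand. The transcripts with near-complete exact copies were low, as were ATP8 and ND6, which had no such window. CYTB also had none and was high, and ND4 was high with 60.8%. Only annotated nuclear transcripts were searched, so copies in the DNA between them were not looked for. The 43 bases that ATP8 shares with ATP6 are all identical in Gm10925. How reads that match several places were counted is not given in the sources used here, and the part of the nuclear copies in these levels was not tested.

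**Figure D1:**
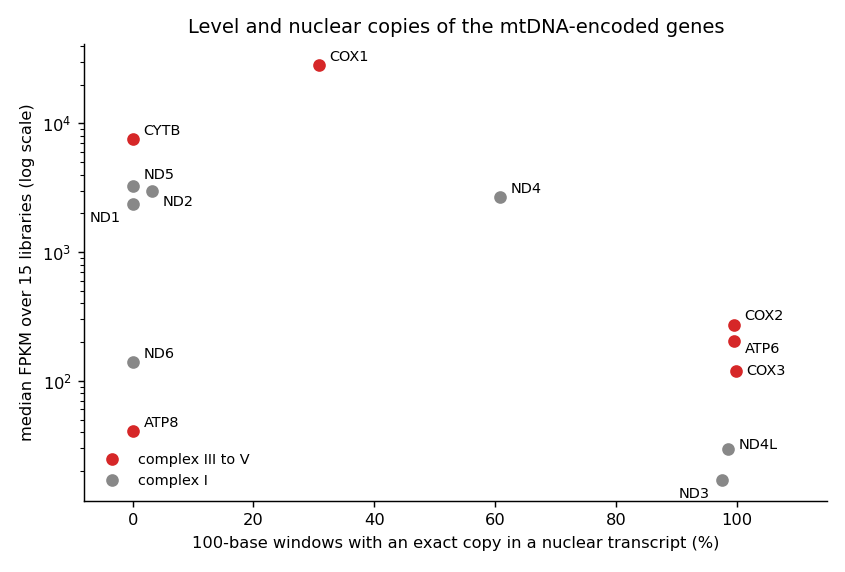
Median FPKM over 15 libraries (log scale) against the percentage of 100-base windows with an exact copy in a nuclear GENCODE M21 transcript, for the 6 subunits of complexes III to V (red) and the 7 complex I subunits (grey) encoded in mitochondrial DNA. COX2, COX3, ATP6, ND3 and ND4L sit at the lower right, COX1 and CYTB at the top, and ATP8 and ND6 at the lower left.

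Counts totalled 20070123 to 27809960 per library. Over all genes, 2 libraries stood apart from their groups. The chi-square per degree of freedom between replicates was 28.4 and 25.5 for the pairs with V560F replicate 2 and 10.6 and 16.003 for those with wild-type OPA1 replicate 3, against 2.96 to 7.09 for the other pairs. Without both libraries, COX1 and CYTB kept their direction and their side of the threshold in each of the 10 pairs of groups. Opa1, the target of the siRNA, had a mean of 14.8 FPKM in control and of 3.70 to 5.13 FPKM in the 4 groups with siRNA against it, and its log2 fold change in the knockdown was -1.38 ± 0.0834 (SE; edgeR adjusted p = 8.53e-10). Of 12 markers of sympathetic neuroblastoma cells, 11 reached a mean of 1 FPKM in every group (summed level 1502 to 1778 FPKM per library). None of the 6 fibroblast, 5 macrophage or 3 epithelial markers in the table reached it. The 13 protein genes of mitochondrial DNA took 6.57 to 7.69% of counts per library. The 6 subunits of complexes III to V took 5.05% ± 0.117 (SD, n = 3) in control, 5.28% ± 0.141 in knockdown, 5.33% ± 0.0437 with wild-type OPA1, 5.54% ± 0.0492 with V465F and 6.0% ± 0.219 with V560F. COX1 alone took 3.79 to 5.47% and the low 4 transcripts together a small remainder, so this sum follows COX1. In bulk RNA a change in the number of mitochondrial DNA copies, in RNA made or kept per copy and in the RNA of the rest of the cell cannot be told apart.

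The main pattern was that COX1 and CYTB, the most abundant of the 6, moved in opposite directions from control through the knockdown and wild-type OPA1 groups to the mutants. Between the 2 mutants they did not, since both were lower with V465F than with V560F, by differences that did not pass. COX1 rose from control to knockdown and again in both mutant groups over wild-type OPA1, while CYTB fell with V465F against wild-type OPA1 and in all 3 plasmid groups against control. COX2, COX3, ATP6 and ATP8 did not follow this course, and several of their calls rested on 1 library. A gene was called when its adjusted p was under 0.05 in an edgeR quasi-likelihood fit to all 15 libraries and 13074 genes, and fold changes are on its TMM scale, which sets the bulk of genes level between libraries.

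**Figure D2:**
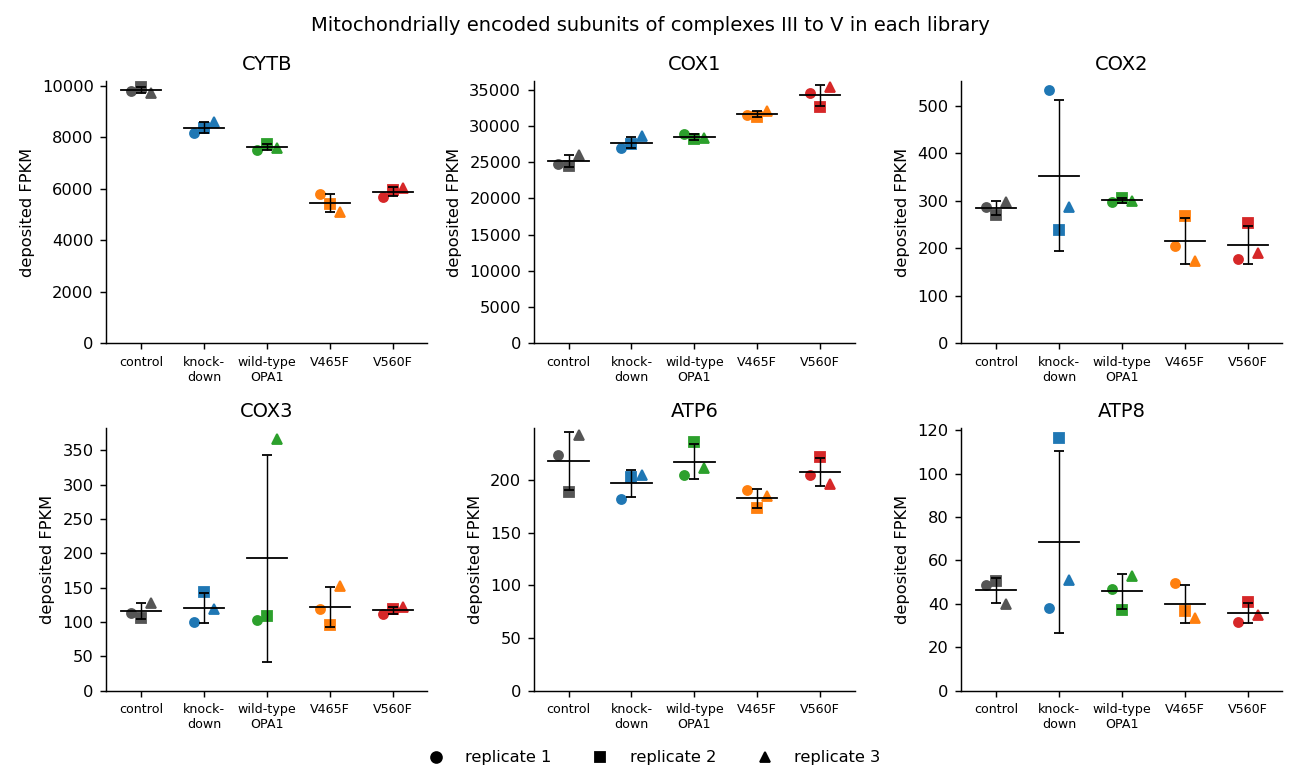
Deposited FPKM of the 6 subunits in each of the 15 libraries (points, shaped by replicate number), with the mean and SD of each group of 3 (bars). COX1 climbs from 24530 to 26046 in control to 32648 to 35417 with V560F, CYTB falls from 9717 to 9949 in control to 5101 to 5791 with V465F, and COX2, COX3 and ATP8 each have 1 library far above its group.

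CYTB, cytochrome b of complex III, had 9811, 9949 and 9717 FPKM in the 3 control libraries and 8154, 8379 and 8588 FPKM in the knockdown libraries. With wild-type OPA1 it had 7517, 7750 and 7577 FPKM. With V465F it had 5791, 5430 and 5101 FPKM, and with V560F 5690, 5941 and 6053 FPKM. On this scale, which divides by the library total, every step from control to knockdown to wild-type OPA1 to the mutants was without overlap, and the 2 mutant groups overlapped. On the TMM scale CYTB fell with V465F against wild-type OPA1 (log2 fold change -0.32 ± 0.0670, edgeR adjusted p = 0.000873) and was -0.11 ± 0.0669 with V560F (adjusted p = 0.193). The difference between the mutants was -0.21 ± 0.0670 for V465F minus V560F (edgeR adjusted p = 0.153, 95% interval -0.35 to -0.07). Against control, CYTB was 1.15-fold lower with wild-type OPA1 (adjusted p = 0.0173), 1.24-fold lower with V560F (adjusted p = 0.000269) and 1.44-fold lower with V465F (adjusted p = 5.88e-07). The knockdown alone differed from control by -0.08 ± 0.0669 (edgeR adjusted p = 0.340).

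The scale sets how much of this fall is seen. With limma on log2(FPKM + 1), the median gene's fold change shifted by -0.13 from the TMM scale in the knockdown against control and by -0.37 in V560F against control. On that scale CYTB fell by 0.23 in the knockdown (adjusted p = 0.0216) and by 0.37 with V560F against wild-type OPA1 (adjusted p = 0.000592), comparisons in which it was not called on the TMM scale. Removing each library's trend with gene length gave -0.16 (adjusted p = 0.0212) and -0.39 (adjusted p = 2.14e-06) in the same 2 comparisons. In each of the 10 pairs of groups, the fold changes of CYTB and of COX1 kept their direction in all 18 alternatives tried.

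COX1, the catalytic subunit of complex IV, had 24785, 24530 and 26046 FPKM in control and 26982, 27547 and 28545 FPKM in the knockdown. With wild-type OPA1 it had 28948, 28249 and 28293 FPKM, with V465F 31495, 31220 and 32040 FPKM, and with V560F 34556, 32648 and 35417 FPKM. The knockdown and wild-type OPA1 libraries overlapped, and each other step of this order was without overlap. COX1 rose in the knockdown (log2 fold change 0.29 ± 0.0685, edgeR adjusted p = 0.00291), with V465F over wild-type OPA1 (0.32 ± 0.0685, adjusted p = 0.00108) and with V560F over wild-type OPA1 (0.52 ± 0.0687, adjusted p = 3.22e-06). Wild-type OPA1 differed from the knockdown by 0.06 ± 0.0685 (adjusted p = 0.827), with a 95% interval of -0.08 to 0.20. V465F minus V560F was -0.21 ± 0.0685, which did not pass (adjusted p = 0.156). Against control, COX1 was 1.27-fold higher with wild-type OPA1, 1.58-fold with V465F and 1.82-fold with V560F (edgeR adjusted p = 0.000502, 3.43e-08 and 4.28e-10). On the FPKM scale with limma the changes were smaller, at 0.14 in the knockdown (adjusted p = 0.307), 0.15 for V465F (adjusted p = 0.276) and 0.26 for V560F against wild-type OPA1 (adjusted p = 0.0445), so the first 2 of these calls were lost. The call of wild-type OPA1 against control was lost too (0.18 against 0.34 on the TMM scale, limma adjusted p = 0.170).

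A ratio of 2 transcripts within a library does not depend on how libraries are scaled. The CYTB to COX1 ratio of FPKM was 0.391 ± 0.0167 (SD, n = 3) in control, 0.302 ± 0.00168 in the knockdown and 0.267 ± 0.00736 with wild-type OPA1. It was 0.172 ± 0.0124 with V465F and 0.173 ± 0.00876 with V560F. No siOPA1 library reached the lowest control library (0.373), and no mutant library reached the lowest library of knockdown and wild-type OPA1 (0.260). The mean log2 ratio of the 12 siOPA1 libraries minus that of the 3 control libraries was -0.82 (-2.18 against -1.35, two-sided exact permutation p = 0.0044, adjusted p = 0.0147 over 10 tests), and 0.0044 is the smallest p that 12 against 3 allows. That of the 6 mutant libraries minus that of the 6 libraries of knockdown and wild-type OPA1 was -0.72 (-2.54 against -1.81, exact permutation p = 0.00216, the smallest possible, adjusted p = 0.0108). Between single groups, 9 of 10 pairs did not overlap, each at an exact p = 0.1, the smallest that 3 against 3 allows. The exception was V560F against V465F, whose ranges overlapped and whose mean log2 ratios differed by 0.00279 (exact p = 1.0). The ratio with wild-type OPA1 was 1.13-fold below that of the knockdown and 1.46-fold below that of control, so wild-type OPA1 libraries lay farther from control than the knockdown libraries did.

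**Figure D3:**
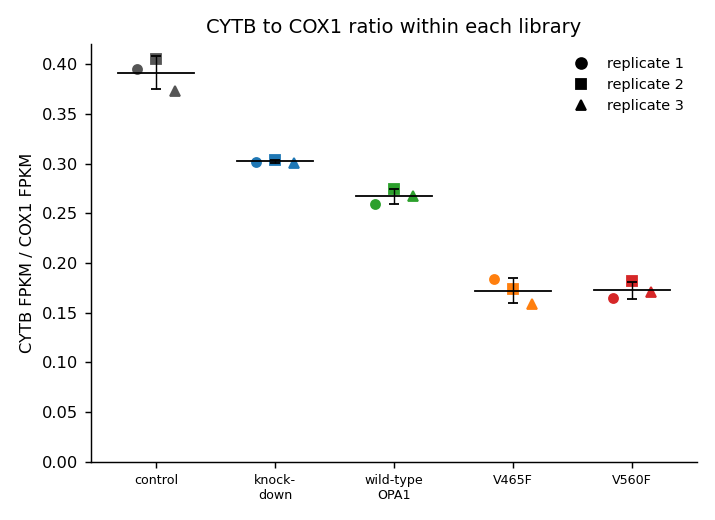
CYTB to COX1 ratio of FPKM within each library, by group, with the mean and SD of 3 libraries. The ratio steps down from 0.391 in control to 0.302 in the knockdown, 0.267 with wild-type OPA1 and 0.172 to 0.173 in the mutant groups, and the 2 mutant groups are the only neighbours that overlap.

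COX2, the complex IV subunit that takes electrons from cytochrome c, had 287, 269 and 298 FPKM in control and 534, 239 and 286 FPKM in the knockdown. It had 297, 306 and 300 FPKM with wild-type OPA1, 204, 268 and 173 FPKM with V465F and 178, 253 and 191 FPKM with V560F. Knockdown replicate 1 was 1.86 times the median of its group, while both mutant groups lay below wild-type OPA1 in every library on this scale. COX2 was called lower in V560F and V465F against the knockdown (log2 fold changes -0.48 ± 0.197 and -0.53 ± 0.197, edgeR adjusted p = 0.0459 and 0.0323). Without knockdown replicate 1 these values were -0.06 (adjusted p = 0.752) and -0.12 (adjusted p = 0.572). Against wild-type OPA1 neither mutant passed (V560F -0.26, adjusted p = 0.279, and V465F -0.32, edgeR adjusted p = 0.215). With limma on log2(FPKM + 1) V560F passed (-0.55, adjusted p = 0.0490) and V465F was -0.50 (adjusted p = 0.0854). With the length trend removed both passed (-0.72 and -0.58, adjusted p = 0.000783 and 0.00636). The COX2 to COX1 ratio was 0.0113 ± 0.00031 in control, 0.0128 ± 0.00606 in the knockdown and 0.0106 ± 0.00029 with wild-type OPA1, and 0.00683 ± 0.00162 with V465F and 0.00610 ± 0.00144 with V560F (SD, n = 3 each). Its mean log2 value in the 6 mutant libraries minus that in the knockdown and wild-type OPA1 libraries was -0.83 (-7.30 against -6.47, exact permutation p = 0.00216, adjusted p = 0.0108), without overlap. Leaving out any of these 12 libraries gave differences of -0.91 to -0.66. The other planned test of this ratio, the 12 siOPA1 libraries minus the 3 control libraries, gave -0.42 with overlap and did not pass (exact permutation p = 0.202, adjusted p = 0.337).

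COX3, the remaining mitochondrial core subunit of complex IV, had 113, 105 and 128 FPKM in control, 99.2, 143 and 119 FPKM in the knockdown and 103, 109 and 366 FPKM with wild-type OPA1. It had 118, 95.01 and 153 FPKM with V465F and 112, 118 and 122 FPKM with V560F. All groups overlapped on this scale, and wild-type OPA1 replicate 3, with 7660 counts, was 3.37 times the median of its group. COX3 was called higher with wild-type OPA1 than in control (log2 fold change 0.92 ± 0.308, edgeR adjusted p = 0.0207), and without that library the value was 0.01 (adjusted p = 0.971). Against wild-type OPA1, V560F was -0.47 ± 0.307 and V465F -0.50 ± 0.307 (edgeR adjusted p = 0.211 and 0.203). Without that library these were 0.44 (adjusted p = 0.0203) and 0.40 (adjusted p = 0.0385), both past the threshold in the other direction. Neither ratio of COX3, to COX1 or to ATP6, passed in any of 4 exact permutation tests (adjusted p = 0.303 to 0.912).

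ATP6, the proton-path subunit of complex V, varied least of the low transcripts. It had 223, 189 and 242 FPKM in control, 181, 203 and 205 FPKM in the knockdown and 205, 236 and 211 FPKM with wild-type OPA1. It had 191, 173 and 184 FPKM with V465F and 205, 222 and 196 FPKM with V560F. The groups overlapped on this scale except that V465F lay below V560F and below wild-type OPA1 in every library. V465F against wild-type OPA1 was -0.08 ± 0.0904 on the TMM scale (edgeR adjusted p = 0.506). It passed at -0.25 with limma on log2(FPKM + 1) (adjusted p = 0.0282) and at -0.36 with the length trend removed (adjusted p = 0.000433). On the TMM scale ATP6 was called higher with V560F than in control (0.35 ± 0.0904, edgeR adjusted p = 0.00149) and than in the knockdown (0.36 ± 0.0905, adjusted p = 0.00199). The direction depended on the scale. Against control it was -0.06 with limma on log2(FPKM + 1) (adjusted p = 0.493) and -0.28 with the length trend removed (adjusted p = 0.00157). In the knockdown against control the difference was -0.01 ± 0.0902 (edgeR adjusted p = 0.970).

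ATP8, the short accessory subunit of complex V, had the fewest counts, 130 to 585 per library. Its 204 bases leave few starting points for reads, and 43 of them belong to ATP6 as well. It had 48.6, 50.6 and 39.8 FPKM in control and 38.1, 116 and 51.0 FPKM in the knockdown. It had 46.9, 37.2 and 52.9 FPKM with wild-type OPA1, 49.7, 36.6 and 33.4 FPKM with V465F and 31.5, 40.8 and 34.6 FPKM with V560F. Knockdown replicate 2 was 2.29 times the median of its group, and all groups overlapped. ATP8 was called higher in the knockdown than in control (log2 fold change 0.71 ± 0.266, edgeR adjusted p = 0.0415), and without that library the value was 0.09 (adjusted p = 0.756). It was called lower with V560F than in the knockdown (-0.66 ± 0.276, adjusted p = 0.0484), and without the same library the value was -0.04 (adjusted p = 0.885). The ATP6 to ATP8 ratio, from genes that lie on 1 stretch of RNA, was 4.81 ± 1.20 in control and 3.51 ± 1.57 to 5.87 ± 0.553 in the other groups, and neither exact permutation test passed (adjusted p = 0.998 and 0.303).

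Such single high libraries were uncommon in the table. Among 9899 genes with a mean count of at least 100, a library at 2 or more times the median of its group was found in 9 genes (0.091%), and COX3, ATP8 and the complex I gene ND3 were among them. ND3 had 563 counts in V560F replicate 2 and 51 and 73 in the other V560F libraries. The high value fell in a different library for COX2 (knockdown replicate 1), ATP8 (knockdown replicate 2), COX3 (wild-type OPA1 replicate 3) and ND3, and the libraries of COX3 and ND3 are the 2 that stood apart over all genes. COX2, COX3 and ND3 have near-complete exact copies in annotated nuclear transcripts. ATP8 has no exact copy there of a 100-base window, though the 43 bases it shares with ATP6 are identical in Gm10925. Nuclear DNA outside annotated transcripts was not searched, and the part of the copies in these values was not tested.

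The number of subunits called is set beside the share of all genes called, which was large in most comparisons. In the knockdown against control 2 of 6 were called, both higher (COX1 and ATP8), beside 35.9% of all genes tested (19.9% higher and 16% lower). With wild-type OPA1 against the knockdown edgeR called 0 of 6, beside 0% of all genes. At an unadjusted p under 0.05 there were 2 of 6 and 1157 of 13074, and DESeq2 and limma on FPKM also called 0 of 6. For V560F against wild-type OPA1 it was 1 of 6, COX1, which rose, beside 49.4% (24.5% higher and 24.9% lower). For V465F against wild-type OPA1 it was 2 of 6, COX1 higher and CYTB lower, beside 38.2% (18.1% higher and 20% lower). Between V465F and V560F edgeR called 0 of 6 beside 0.00765% of all genes. At an unadjusted p under 0.05 there were 3 of 6 and 2373 of 13074. DESeq2 called 2 of 6 and 147 of all genes. Limma on FPKM called 0 of 6, and among all genes 0 higher and 1 lower. The 3 at an unadjusted p under 0.05, CYTB, COX1 and ATP6, were lower with V465F. On the TMM scale the libraries of each did not overlap between the mutant groups, as in 18.3% of all genes. On the FPKM scale those of CYTB overlapped.

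**Figure D4:**
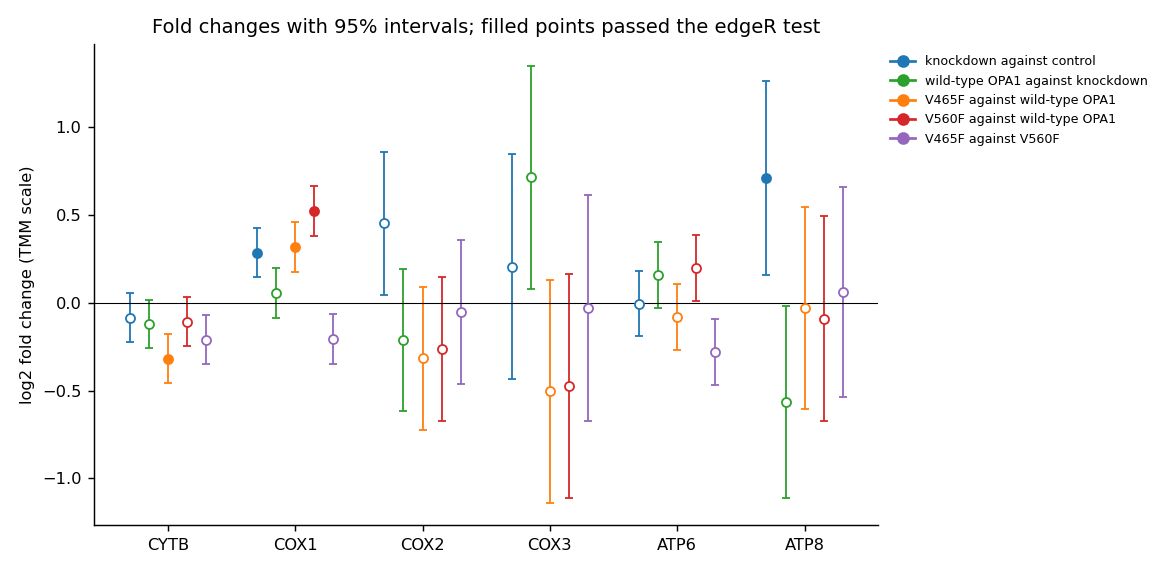
Log2 fold changes (TMM scale) of the 6 subunits in 5 comparisons with 95% intervals from the edgeR fit; filled points passed at an adjusted p under 0.05. COX1 is filled above 0 in 3 comparisons and CYTB below 0 in 1, and the intervals of COX3 and ATP8 span over 1 log2 unit.

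Against the knockdown, V560F had 2 subunits called higher (COX1 and ATP6) and 3 lower (CYTB, COX2 and ATP8), beside 53.8% of all genes called (26.3% higher and 27.6% lower). V465F had 1 higher (COX1) and 2 lower (CYTB and COX2), beside 46% (21.9% higher and 24.1% lower). The fold change of COX1 was 0.58 ± 0.0687 with V560F and 0.37 ± 0.0686 with V465F, and that of CYTB was -0.23 ± 0.0670 and -0.44 ± 0.0671 (edgeR adjusted p = 6.13e-07, 0.000152, 0.00627 and 2.41e-05). With limma on log2(FPKM + 1), COX1 was 0.19 with V465F (adjusted p = 0.147), and that call was lost. Against control, wild-type OPA1 had 2 called higher (COX1 and COX3) and 1 lower (CYTB), beside 41.4% of all genes (22.1% higher and 19.3% lower). V560F had 2 higher (COX1 and ATP6) and 1 lower (CYTB), beside 69.1% (32.9% higher and 36.2% lower). V465F had COX1 higher and CYTB lower, beside 65.3% (30.7% higher and 34.5% lower). These comparisons share their reference libraries, so they are not independent of each other. Ranked among all 13074 fold changes of V560F against wild-type OPA1, COX1 stood at percentile 90.1 and CYTB at 43.4, and for V465F they stood at 84.6 and 23.3.

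The 7 complex I subunits encoded on the same DNA gave a context for the opposite courses of CYTB and COX1. None of them was called in the knockdown against control (edgeR, with 0 of 7 at an unadjusted p under 0.05, and 0 by DESeq2), while limma on log2(FPKM + 1) called ND1 lower (-0.18, adjusted p = 0.0316). With V560F against wild-type OPA1, ND5 and ND2 rose (0.31 ± 0.0659 and 0.24 ± 0.0719, edgeR adjusted p = 0.000475 and 0.00730) and ND4L fell (-0.58 ± 0.206, adjusted p = 0.0243). With V465F, ND6, ND4 and ND1 fell (-0.38 ± 0.107, -0.20 ± 0.0721 and -0.19 ± 0.0704, edgeR adjusted p = 0.00802, 0.0338 and 0.0387). ND6 is the only protein gene of the other DNA strand. With limma on log2(FPKM + 1), 0 rose and 4 fell with V560F, and 0 rose and 4 fell with V465F, so the rises of ND5 and ND2 were not called there, where ND2 was at -0.02 (adjusted p = 0.807). Among all 13074 genes, limma called 1254 higher and 5807 lower with V560F, and 972 and 4297 with V465F. EdgeR called 35.9% of all genes in the knockdown, 49.4% with V560F and 38.2% with V465F. The COX1 to ND1 ratio of FPKM was 8.67 ± 0.360 (SD, n = 3) in control, 10.8 ± 0.0876 in the knockdown, 12.2 ± 0.123 with wild-type OPA1, 17.3 ± 1.33 with V465F and 16.9 ± 1.34 with V560F. The CYTB to ND1 ratio moved less, from 3.39 ± 0.0567 in control to 2.98 ± 0.0233 with V465F and 2.91 ± 0.0864 with V560F. The CYTB to ND5 ratio went from 2.98 ± 0.130 in control to 1.76 ± 0.0593 and 1.73 ± 0.0338 in the same groups. The COX1 to ND5 ratio went from 7.61 ± 0.0772 to 10.2 ± 0.529 and 10.0 ± 0.309. The fold from control to the mutants was thus smaller for CYTB to ND1 than for CYTB to ND5, and smaller for COX1 to ND5 than for COX1 to ND1, and these ratios were not tested.

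**Figure D5:**
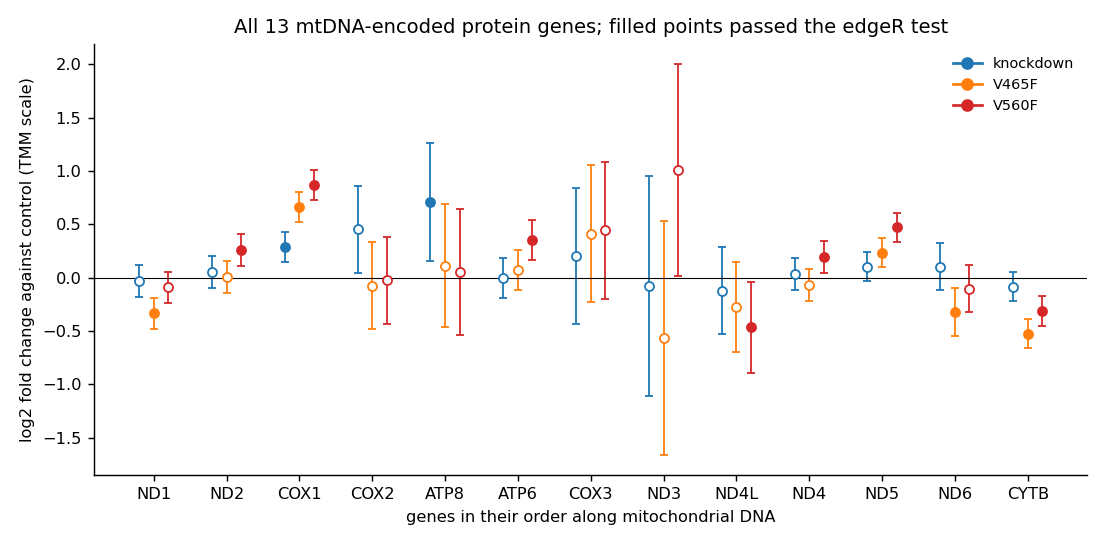
Log2 fold changes against control (TMM scale) with 95% intervals for all 13 protein genes of mitochondrial DNA, in their order along the molecule, in the knockdown, V465F and V560F groups; filled points passed the edgeR test. COX1 stands highest among the genes with narrow intervals and CYTB and ND1 lowest with V465F; ND3, COX3, ATP8, ND4L and COX2 have the widest intervals.

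Nuclear subunits of the same complexes mostly rose on the TMM scale. In the knockdown against control, 19.9% of all genes rose and 16% fell. Of the subunits tested, 6 of 9 of complex III, 11 of 12 of complex IV and 13 of 16 of complex V rose and 0 fell. Their median log2 fold changes were 0.24, 0.28 and 0.31 beside 0.01 for all genes. Examples were the complex III core protein Uqcrc1 (0.30 ± 0.0748, edgeR adjusted p = 0.00359), the complex IV subunits Cox5b (0.37 ± 0.0865, adjusted p = 0.00240) and Cox4i1 (0.35 ± 0.0880, adjusted p = 0.00409) and the catalytic beta subunit of ATP synthase, Atp5b (0.38 ± 0.0684, adjusted p = 0.000315). With V560F against wild-type OPA1, 24.5% of all genes rose and 24.9% fell, while 9 of 9, 12 of 12 and 16 of 16 of these subunits rose. Their medians were 0.38, 0.66 and 0.61 beside -0.02 for all genes. Cox8a (0.79 ± 0.101, edgeR adjusted p = 2.38e-06), Uqcrb (0.76 ± 0.101, adjusted p = 3.49e-06) and Atp5g2, a gene for the c subunit of the ATP synthase rotor (0.76 ± 0.0823, adjusted p = 4.13e-07), were among them. With V465F, 7 of 9, 12 of 12 and 14 of 16 rose, with medians of 0.25, 0.41 and 0.41, including Uqcrq (0.50 ± 0.0952, edgeR adjusted p = 0.000356). Of all genes, 18.1% rose and 20% fell in that comparison, with a median of -0.02. With limma on log2(FPKM + 1) the knockdown counts were 0, 3 and 7, those of V560F 5, 12 and 12 and those of V465F 2, 9 and 8, and 0 fell. Among all 13074 genes, limma called 1038 higher and 3577 lower in the knockdown, 1254 and 5807 with V560F and 972 and 4297 with V465F. With the length trend removed the counts of subunits that rose were 5, 7 and 13, then 3, 8 and 12, then 2, 7 and 11, and 1 complex III gene fell in the knockdown and 1 with V560F. The calls over all genes were then 3897 higher and 1723 lower in the knockdown, 3795 and 2187 with V560F and 3238 and 1829 with V465F. The medians for complexes III, IV and V became 0.11, 0.39 and 0.34 with limma and 0.11, 0.21 and 0.24 with the length trend removed for V560F, and 0.08, 0.25 and 0.25, then 0.09, 0.14 and 0.18, for V465F. In the knockdown they were 0.09, 0.14 and 0.17, then 0.18, 0.16 and 0.21. The medians of all genes in the knockdown, V560F and V465F comparisons were -0.088, -0.157 and -0.106 with limma. With the length trend removed they were 0.0728, 0.0498 and 0.0474. Beside the rises of the nuclear subunits on the TMM scale, CYTB was not called in the knockdown or with V560F against wild-type OPA1 and fell with V465F. COX1 rose in all 3 comparisons, and ATP6 was called in none of them.

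Genes that make and process mitochondrial RNA moved in both directions. Of 35 tested, 8 rose and 3 fell in the knockdown, with a median log2 fold change of -0.02, beside 19.9% and 16% of all genes. Grsf1 (0.29 ± 0.0600, edgeR adjusted p = 0.00105), an RNA-binding protein of mitochondrial RNA granules, and Mtpap (0.31 ± 0.0627, adjusted p = 0.000876), the mitochondrial poly(A) polymerase, rose. Fastkd5 (-0.89 ± 0.214, adjusted p = 0.00293), which in human cells is needed for the ends of transcripts not set by a tRNA, including those of COX1 and CYTB, fell. With V560F against wild-type OPA1, 7 rose and 8 fell, beside 24.5% and 24.9%. Apart from the smaller number that fell in the knockdown, these counts lie near the shares of all genes. Twnk, the helicase that replicates mitochondrial DNA, fell with V560F (-0.98 ± 0.127, edgeR adjusted p = 2.73e-06) and with V465F (-0.99 ± 0.126, adjusted p = 6.61e-06). Slirp, a partner of the transcript-stabilising protein Lrpprc, rose with V560F (0.65 ± 0.117, edgeR adjusted p = 9.53e-05). With V465F 5 rose and 7 fell, beside 18.1% and 20%, and among those that fell were Tfam (-0.42 ± 0.0759, edgeR adjusted p = 0.000254), which packages mitochondrial DNA and starts its transcription, Pde12 (-0.72 ± 0.135, adjusted p = 0.000296), which trims poly(A) tails, and the elongation factor Tefm (-1.42 ± 0.301, adjusted p = 0.000927). The balance depended on the scale, and so did that of all genes. Limma on log2(FPKM + 1) gave 3 higher and 20 lower for V560F and 1 and 15 for V465F. Among all 13074 genes it called 1254 higher and 5807 lower for V560F, and 972 and 4297 for V465F. Removing the length trend gave 10 and 7 for V560F and 10 and 8 for V465F. The calls over all genes were then 3795 and 2187 for V560F and 3238 and 1829 for V465F.

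Of the translation activators and assembly factors that act on these subunits, 28 of 30 listed were tested. In the knockdown 3 rose and 1 fell, beside 19.9% and 16% of all genes. With V560F against wild-type OPA1 10 rose and 2 fell, beside 24.5% and 24.9%, and with V465F 7 rose and 1 fell, beside 18.1% and 20%. The share that rose was below that of all genes in the knockdown and above it with V560F and with V465F. The share that fell was below that of all genes in each of these comparisons. Uqcc2, which in human cells binds newly made cytochrome b during assembly, rose in all 3 comparisons (0.50 ± 0.0923, 0.67 ± 0.0892 and 0.58 ± 0.0891, edgeR adjusted p = 0.000383, 3.71e-06 and 4.56e-05). Oxa1l, the insertase that places mitochondrially made proteins in the inner membrane, did so too (0.28 ± 0.0673, 0.51 ± 0.0672 and 0.32 ± 0.0671, edgeR adjusted p = 0.00293, 3.08e-06 and 0.000762). Cox20, in human cells a chaperone of COX2, rose by 0.58 ± 0.153, 0.77 ± 0.146 and 0.56 ± 0.147 (edgeR adjusted p = 0.00545, 0.000177 and 0.00477). Coa3, which in human cells binds and stabilises newly made COX1, was the 1 that fell in the knockdown (-0.66 ± 0.138, edgeR adjusted p = 0.00109). Cox14, which acts with it, rose with V560F (0.68 ± 0.118, edgeR adjusted p = 5.99e-05). With limma on log2(FPKM + 1) the counts were 3 higher and 7 lower in the knockdown, 6 and 10 with V560F and 3 and 8 with V465F. Among all 13074 genes, limma called 1038 higher and 3577 lower, 1254 and 5807, and 972 and 4297 in the same comparisons.

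The nuclear gene with a course most like the mean log2 CPM of the 6 subunits over the 15 libraries was Ubl3 (Pearson r = 0.889), followed by Psmd3 (0.856), Pla2g15 (0.834), Atf5 (0.821), Tmem161b (0.820), Gnpda2 (0.820), Ppp1r8 (0.818), Leo1 (0.812), Abhd17b (0.808) and Arpc1a (0.805). None of the 10 is another mitochondrial transcript. The mean gives equal weight to the low transcripts with single high libraries, the points share library scaling, and r is a description over 15 libraries in 5 groups.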

How the data were processed

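RNA-seq libraries were made from total RNA of N2a cells (15 libraries), grouped by their sample labels. The deposited table holds raw counts per gene, made by the authors, and the authors' FPKM. The submitters' processing notes name build GRCm39 and the tools HTSeq, HISAT2, fastp and R 3.2.0; the other versions, the annotation, the strand setting and the handling of reads that match several places are not given in the sources used here. The deposited FPKM equalled the count over gene length and over the summed counts of the table, with a largest relative gap of 1.2e-06, so an abundant gene such as COX1 enters the scale of every other gene.

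Counts were tested with edgeR 4.0.16 in R 4.3.3 (filterByExpr, TMM, a quasi-likelihood fit with 1 mean per group, 10 residual degrees of freedom), with Benjamini-Hochberg adjustment over 13074 genes and calls at an adjusted p under 0.05. The procedure was checked on simulated counts. The median 95% half-width of a log2 fold change was 0.217 to 0.228. Ratios of FPKM were compared with two-sided exact permutation tests over libraries, adjusted over 10 tests. Transcripts of GENCODE M21 were aligned with BLAST 2.17.0.

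Alternatives were DESeq2 1.42.0 and its size factors, limma 3.58.1 on log2(FPKM + 1) and log2(FPKM + 0.1), no filter, a minimum of 5 FPKM in 3 libraries, scaling without mitochondrial genes, removal of each library's trend with gene length (a spline with 5 degrees of freedom), robust moderation, only the 6 libraries compared, a replicate block, each library left out in turn and, added after the data were seen, V560F replicate 2 and wild-type OPA1 replicate 3 both left out. Beside the 6 subunits and Opa1, named genes were up to 4 called members of a list with the lowest adjusted p and the 10 genes most correlated with the mean of the 6; ND3 and the ND1 and ND5 ratios were chosen after their values were seen. The genes and lists were chosen with earlier results of these data known.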

Additional observations from a re-analysis of the deposited data

How the results depend on the processing

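COX1 and CYTB kept their direction in all 18 alternatives of each pair of groups. The number of the 6 subunits called was less stable. In the knockdown against control (2 called) it was 1 with limma on FPKM at either pseudocount, with a replicate block, with robust moderation and with DESeq2, and 4 with no filter and with only the 6 libraries compared. Among all genes, the main fit called 2599 higher and 2090 lower there and limma on log2(FPKM + 1) 1038 and 3577. A replicate block gave 2576 and 2100, robust moderation 2590 and 2089 and DESeq2 2880 and 2019. No filter gave 2693 and 1952, and only the 6 libraries 3003 and 2977. In wild-type OPA1 against the knockdown (0 called) the number of subunits was 2 with no filter, which called 20 higher and 20 lower among all genes. In V560F against wild-type OPA1 (1 called) the number of subunits was 2 with DESeq2, with its size factors and with the 5 FPKM filter, 3 with limma at either pseudocount and with the 2 libraries left out, 4 with no filter and 6 with the length trend removed. Among all genes, the main fit called 3204 higher and 3260 lower there, DESeq2 3423 and 3114 and its size factors 3384 and 3073. The 5 FPKM filter gave 2273 and 2366, limma on log2(FPKM + 1) 1254 and 5807 and the 2 libraries left out 2980 and 2909. No filter gave 2906 and 3332 and the length trend removed 3795 and 2187. In V465F against wild-type OPA1 (2 called) the number of subunits was 4 with no filter and 5 with the length trend removed. Among all genes, the main fit called 2367 higher and 2621 lower, no filter 2181 and 2685 and the length trend removed 3238 and 1829. In V465F against V560F (0 called) the number of subunits was 3 with no filter and 2 with DESeq2. Among all genes, the main fit called 0 higher and 1 lower, no filter 243 and 337 and DESeq2 61 and 86. In V560F against the knockdown (5 called) the number of subunits was 3 with DESeq2, with its size factors, with robust moderation, with a replicate block and with only the 6 libraries compared, COX2 and ATP8 being lost each time. Among all genes, the main fit called 3432 higher and 3608 lower there, DESeq2 3639 and 3472 and its size factors 3597 and 3435. Robust moderation gave 3436 and 3590, a replicate block 3453 and 3613 and only the 6 libraries 3107 and 3095. In V465F against the knockdown (3 called) the number of subunits was 5 with no filter, with the length trend removed and with only the 6 libraries, and COX2 was lost with DESeq2 and with robust moderation. Among all genes, the main fit called 2867 higher and 3148 lower there and no filter 2627 and 3163. The length trend removed gave 3583 and 2204 and only the 6 libraries 3422 and 3501. Against control, wild-type OPA1 (3 called) had 1 with limma at either pseudocount, and V560F (3 called) and V465F (2 called) had 5 with the length trend removed. Among all genes, limma on log2(FPKM + 1) called 1364 higher and 4292 lower for wild-type OPA1, where the main fit called 2887 and 2522. The length trend removed gave 5264 and 3405 for V560F (main fit 4299 and 4732) and 5143 and 3181 for V465F (main fit 4014 and 4517). With a library left out in turn, it ranged from 1 to 2 in the knockdown against control, was 2 throughout in V560F against wild-type OPA1 and ranged from 0 to 1 in V465F against V560F. To look at the replicate numbers, the mean log2 CPM of each gene in its group was subtracted from every library. Correlations of these deviations, not of the levels, between same-numbered libraries of 2 groups ran from -0.385 to 0.247 over 30 pairs, 13 of them over 0.1. All negative values were in pairs with V560F, the lowest with its replicate 2. Differently numbered libraries were not compared, so these values do not decide whether the replicate numbers pair the libraries. Besides ATP8 in the knockdown (0.66, adjusted p = 0.0685), the replicate block also lost COX2 in V560F and V465F against the knockdown (-0.46 and -0.52) and ATP8 in V560F against the knockdown (-0.62). 

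Some directions turned. For ATP6 in the knockdown against control (-0.01) the value was 0.01 with DESeq2 (0.00777), with its size factors (0.00792) and with no filter (0.00981), and ran from -0.11 to 0.0925 over left-out libraries. For ATP6 in V560F it was -0.06 (-0.0643 and -0.0646) against wild-type OPA1 and -0.06 (-0.0648 and -0.0651) against control with limma, and -0.25 and -0.28 with the length trend removed, which also gave -0.14 against the knockdown. With the 2 libraries left out, COX3 was -0.19 in wild-type OPA1 against the knockdown, 0.39 and 0.40 in V560F and V465F against wild-type OPA1 and 0.01 (0.0131) in V465F against V560F, ATP8 was 0.12 in V465F against wild-type OPA1, and COX2 was 0.16 in V465F against V560F. In V465F against V560F, COX2 and COX3 were 0.05 (0.0467 and 0.0469) and 0.03 (0.0332 and 0.0333) with limma, and 0.14 and 0.12 with the length trend removed. Over left-out libraries, wild-type OPA1 against the knockdown ran from -0.43 to 0.20 for COX2, -0.19 to 1.02 for COX3 and -0.86 to 0.0511 for ATP8. V560F against wild-type OPA1 ran from -0.78 to 0.44 for COX3 and -0.25 to 0.0576 for ATP8, and V465F against wild-type OPA1 from -0.81 to 0.40 and -0.21 to 0.12. V465F against V560F ran from -0.24 to 0.17 for COX2, -0.24 to 0.12 for COX3 and -0.12 to 0.22 for ATP8. The ATP6 to ATP8 ratio, siOPA1 against control, ran from -0.23 to 0.13, and the COX3 to ATP6 ratio of mutants against knockdown and wild-type OPA1 turned to 0.14 without wild-type OPA1 replicate 3 (lowest -0.24). The COX2 to COX1 ratio, siOPA1 against control, was -0.42 with all libraries (exact permutation adjusted p = 0.337). It ran from -0.53 (adjusted p = 0.0137, without knockdown replicate 1) to -0.36, and passed in only 1 of these 15 runs. The CYTB to COX1 ratio, siOPA1 against control, ran from -0.86 to -0.78, and with 1 of the 3 control libraries left out its adjusted p was 0.0733, with no overlap. The causes of these changes were not tested. The counts of ATP8, 130 to 585 per library, and the single high libraries of COX2, COX3 and ATP8 limit what these transcripts can show.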
